A study of Rattus norvegicus with 6 samples.

Results

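The AP-1 and immediate early factors are transcription factors and a related nuclear protein, and many of their mRNAs, though not all, are made within minutes of a stimulus. They were followed here in rat liver after repeated dosing with tert-butyl alcohol, a tertiary alcohol and common solvent, shortened to tBA. The 10 genes listed were Jun, Junb, Jund, Fos, Fosb, Fosl2, Egr1, Atf3, Ier2 and Myc, and a probe was kept when its accession matched one of these symbols in RefSeq. Of the 10, 9 had a probe, out of 15284 symbols matched on the array, with 16 probes between them, and no probe was matched to Fosb. The list was drawn up knowing how these genes differed between tBA and vehicle on these same arrays, so their differences below are a description. No p is given for any single gene of the 10, and counts of them passing a threshold are not read as a result.

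Liver total RNA came from 6 male rats of the outbred Sprague-Dawley stock, bought at 5 weeks of age. Of these, 3 received tBA at 1000 mg/kg/day and 3 received vehicle, with 1 one-colour Agilent array per animal. The vehicle is purified water in the sample labels but corn oil in the treatment protocol, and dosing is put at 28 days by the series but at 9 weeks by that protocol. Whole liver was used, so fewer cells of a type and less RNA per cell cannot be told apart.

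AP-1 is a dimer of basic leucine zipper proteins, formed by a Jun protein with another Jun, a Fos protein or an ATF protein, and it binds a short palindromic DNA site. In mouse liver, Jun is known for its role in hepatocyte survival and regeneration, and the immediate early genes are known to respond to partial hepatectomy, injury, growth factors and stress kinases. Their promoters are classically switched on through serum response elements, whose core is the CArG box bound by SRF, and through cAMP response elements bound by CREB and ATF proteins.

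The share of the 61657 probes that was well above background ran from 61.5% to 66.9% per array, with 0 saturated spots. Levels are given as log2 of the processed signal minus the 75th percentile of that array, so 0 is the 75th percentile, and they are compared within a probe only. All 10 hepatocyte markers listed were measured above background, with summed signals of 4584 to 4798 times the 75th percentile in tBA livers and 4539 to 4917 times in vehicle livers. Slide 1 held tBA replicate 1 and the 3 vehicle arrays, and slide 2 held tBA replicates 2 and 3. Slide and scan day coincided. Where a gene had several probes the brightest on average stood for it. Testing required that the probe exceed background on each array of 1 group or both, which 8 of the 10 listed genes met, each of them on all 6 arrays.

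The promoter table of RefSeq held 6 of the 10 genes, without Jun, Fos, Atf3 and Myc, in windows from 250 bases before to 50 bases after the annotated start in build GRCr8. The stretches below end at the last base before the start. They come from 2 genes that were lower in tBA livers (Egr1 and Junb) and 2 that differed little (Jund and Ier2). Each carries a match to the CArG box or to a full or short cAMP response element, and Junb only the short one. Capitals mark the cAMP response element TGACGTCA, its shorter form TGACG on either strand, and the CArG box. The Egr1 stretch is chr18:26736918-26737077 on the plus strand, the Junb stretch chr19:40080946-40081125 on the plus strand, the Jund stretch chr16:18769772-18770001 on the minus strand, and the Ier2 stretch chr19:40399253-40399372 on the plus strand.
Egr1: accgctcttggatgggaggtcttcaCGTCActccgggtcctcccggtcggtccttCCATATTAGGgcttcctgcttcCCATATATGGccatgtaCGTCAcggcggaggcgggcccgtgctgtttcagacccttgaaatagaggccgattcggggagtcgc
Junb: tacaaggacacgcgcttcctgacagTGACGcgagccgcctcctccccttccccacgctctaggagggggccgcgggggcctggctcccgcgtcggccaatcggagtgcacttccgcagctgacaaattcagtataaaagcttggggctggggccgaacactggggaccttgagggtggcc
Jund: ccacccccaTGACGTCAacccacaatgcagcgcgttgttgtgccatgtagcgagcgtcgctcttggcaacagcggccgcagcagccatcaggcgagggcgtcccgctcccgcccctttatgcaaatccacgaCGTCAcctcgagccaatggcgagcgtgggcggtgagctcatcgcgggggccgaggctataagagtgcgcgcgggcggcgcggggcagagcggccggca
Ier2: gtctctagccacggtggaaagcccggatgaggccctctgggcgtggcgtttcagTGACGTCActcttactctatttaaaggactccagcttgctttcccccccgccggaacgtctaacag

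Egr1 was the 1 gene of the 6 with CArG boxes, and it had 2, starting 105 and 83 bases before the start, with a short cAMP response element on either side of the pair. A CArG box was found in 1.64% of 33469 promoter windows of the same length. Jund and Ier2 each held the full cAMP response element, 221 and 66 bases before the start, which 1.83% of windows held. The full element contains the short one on both strands. Junb had 1 short element, 155 bases before the start, a match found in 21.2% of windows, and a TATA box, TATAAA, 49 bases before the start, found in 14.2%. The other motifs searched, on both strands, were the AP-1 site TGACTCA (4.63% of windows), the E-box CACGTG (6.42%) and the EGR site GCGGGGGCG (2.73%). Of these, the EGR site was matched once, in Fosl2, and the AP-1 site and E-box in none of the 6 windows. Fosb had a TATA box match on the opposite strand. The stretches shown belong to genes chosen by their expression difference, and no relation between motif and difference was tested.

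**Figure D1:**
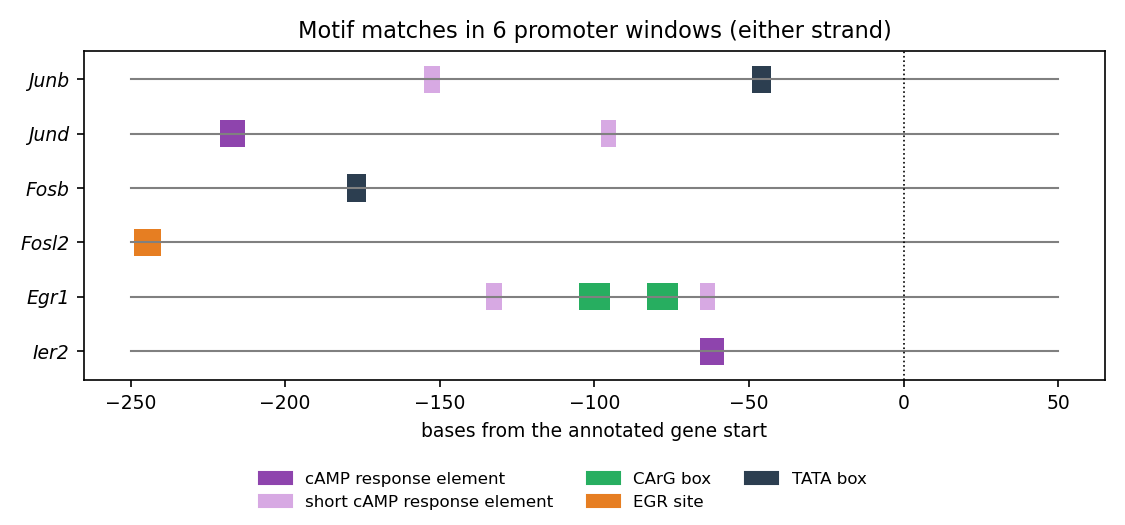
Motif matches in the RefSeq promoter windows of 6 immediate early genes, by distance in bases from the annotated gene start (dotted line); each coloured block is a match on either strand, and the full cAMP response element covers the short ones within it. Egr1 carries 2 CArG boxes, while Jund and Ier2 carry the full cAMP response element.

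Jun, the founding AP-1 subunit and a target of the JNK stress kinases, stood furthest from vehicle. Its brighter probe (accession NM_021835) read 1.74, 2.05 and 1.54 in tBA livers and 3.75, 3.38 and 3.21 in vehicle livers. The highest tBA value lay 1.15 below the lowest vehicle value, so the groups were far apart and about equally tight. The mean was 1.78 ± 0.26 in tBA livers and 3.45 ± 0.28 in vehicle livers (SD, n = 3 each), a difference of -1.67, or 0.314 times the vehicle level. The second Jun probe, matched to the same transcript, gave -1.602. Both probes placed Jun at about the same distance.

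Junb, a Jun paralogue that is often co-induced with Jun and can restrain it, was also lower with tBA. The brighter probe read 3.51, 2.77 and 2.72 in tBA livers and 3.80, 3.92 and 3.95 in vehicle livers. The tBA animals were unequal, with replicate 1 close below the vehicle animals and replicates 2 and 3 well below, while the vehicle animals were almost level. The mean was 3.00 ± 0.44 in tBA livers and 3.89 ± 0.077 in vehicle livers (SD, n = 3 each), a difference of -0.89. The dimmer second probe gave -1.08, again with replicate 1 the highest tBA animal.

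Jund, the Jun family member that is expressed in resting cells, differed less. Its brightest probe read 3.64, 3.53 and 3.13 in tBA livers and 3.78, 3.87 and 3.604 in vehicle livers. The groups overlapped, and the difference of -0.32 was carried mostly by tBA replicate 3, since it was -0.17 without that animal. The other Jund probes gave -0.18 and -0.33, and they overlapped as well. The Jun family therefore gave differences of -1.67, -0.89 and -0.32 for Jun, Junb and Jund at their brightest probes.

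Fos, the partner of Jun that is normally made only briefly after a stimulus, was near the detection limit. Its brighter probe was well above background on 2 of 3 tBA arrays and 2 of 3 vehicle arrays, with processed signals of 18.8, 26.4 and 12.9 in tBA livers and 18.2, 24.2 and 10.1 in vehicle livers. Its other probe was above background on 0 of 6 arrays. Fos was therefore not tested, and the groups overlapped throughout the range that could be read.

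Fosl2, which encodes the longer-lived Fos relative Fra-2, was measured on all arrays and showed no separation. Its brightest probe read -2.65, -2.85 and -3.37 in tBA livers and -2.74, -3.03 and -3.20 in vehicle livers, a difference of 0.036. Its other probes gave -0.21 and -0.046, so the sign depended on the probe, and the groups overlapped in all 3. Among tested members with several probes, Fosl2 was the 1 of 4 whose probes disagreed in sign.

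Atf3, an ATF family protein that dimerises with Jun and is induced by stress, read -0.68, -0.69 and -1.49 in tBA livers and -0.088, -0.45 and -0.28 in vehicle livers. The 3 tBA values lay below the 3 vehicle values by at least 0.23, and replicate 3 was the lowest by a wide margin. The mean was -0.95 ± 0.47 in tBA livers and -0.27 ± 0.18 in vehicle livers (SD, n = 3 each), a difference of -0.68. Without tBA replicate 3 the difference was -0.41. Atf3 had 1 probe.

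Egr1, a zinc finger factor that is a classic serum response gene and lies outside AP-1, had the second largest difference after Jun. It read -0.96, -1.77 and -2.46 in tBA livers and -0.33, -0.85 and -0.69 in vehicle livers. The tBA animals were spread over a range of more than 1 log2 unit, and the nearest of them lay 0.11 below the lowest vehicle animal. The mean was -1.73 ± 0.75 in tBA livers and -0.63 ± 0.26 in vehicle livers (SD, n = 3 each), a difference of -1.11, or 0.465 times the vehicle level. Egr1 had 1 probe, which carried its whole value.

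Ier2, a small immediate early nuclear protein, was nearly level. It read 4.15, 3.74 and 4.13 in tBA livers and 4.27, 4.27 and 4.26 in vehicle livers. The groups did not overlap, and the nearest tBA animal lay 0.11 below the lowest vehicle animal. The vehicle animals were within 0.01 of each other, with an SD of 0.0051. The difference was -0.26, and it was -0.12 without tBA replicate 2.

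Myc, a helix-loop-helix zipper factor that drives growth genes and is regulated apart from AP-1, varied as much within groups as between them. It read 0.011, 1.05 and 1.40 in tBA livers and 1.60, 1.15 and 0.29 in vehicle livers. The groups overlapped over most of their range, and the low animals were tBA replicate 1 and vehicle replicate 3. The difference of -0.20 was smaller than the SD of 0.72 in tBA livers and 0.66 in vehicle livers, and it was 0.21 without tBA replicate 1.

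**Figure D2:**
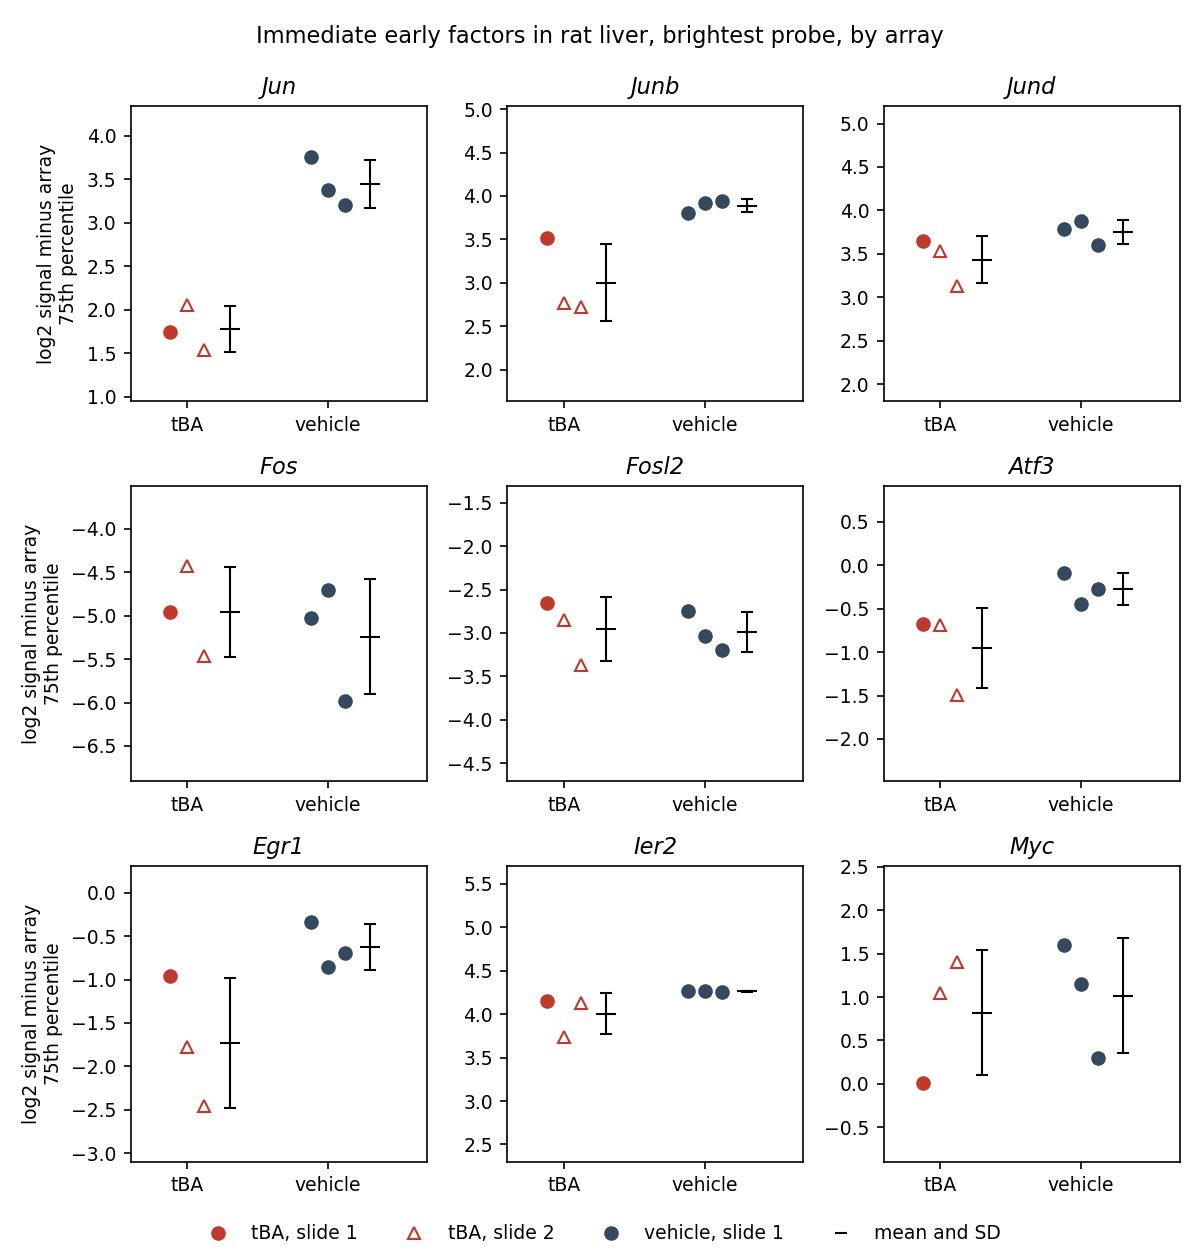
Level of each immediate early gene on each array, as log2 signal minus the array's 75th percentile at the brightest probe, with tBA left and vehicle right; filled circles are slide 1, open triangles slide 2, and the bar is the mean with its SD (n = 3), all panels spanning the same number of log2 units. Jun separates by 1.15 with tight groups, Junb, Egr1, Atf3 and Ier2 separate with a wider tBA group, and Jund, Fos, Fosl2 and Myc overlap.

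Among the 8 genes tested, 7 were lower with tBA and 1 was higher, with a median difference of -0.50 beside 0.0032 over 11094 genes. The groups did not overlap in 5 (Jun, Junb, Egr1, Atf3 and Ier2), each lower with tBA, where 11.3% of 11090 genes with a value on all 6 arrays lay apart in that direction. More than 0.5 below vehicle were 4 of the 8, beside 5.74% of all genes. In limma, 0 of the 8 passed a Benjamini-Hochberg adjusted p of 0.05 over all genes and 4 had an unadjusted p under 0.05, where 0.0361% and 15.1% of all genes did. Since the genes were chosen on this contrast, nothing is read from these counts.

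The 3 tBA animals did not deviate alike. Averaged over the 8 genes, tBA replicates 1, 2 and 3 stood at -0.46, -0.58 and -0.86 relative to the vehicle mean, and the vehicle animals at 0.19, -0.028 and -0.17. Replicate 3 was the lowest tBA animal for 6 of the 8 genes, and replicate 1 was the highest for 6. Replicate 1 was also the 1 tBA array on slide 1 with the vehicle arrays, so animal and slide cannot be told apart in this order.

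Within slide 1, where tBA replicate 1 was set against the 3 vehicle animals, Jun was at -1.71, and the tBA animals of slide 2 averaged -1.65 from the vehicle mean. For Jun, then, the difference was as large within the slide as across slides. Junb was at -0.37 within slide 1 and at -1.14 for the slide 2 animals. Egr1 was at -0.34 within slide 1 and at -1.49 for the slide 2 animals. For these genes most of the distance from vehicle was contributed by the slide 2 animals, although tBA replicate 1 was still below every vehicle animal. Atf3 was at -0.41 within slide 1 and at -0.82 for the slide 2 animals. Myc ran the other way, at -1.005 within slide 1 and 0.21 for the slide 2 animals.

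**Figure D3:**
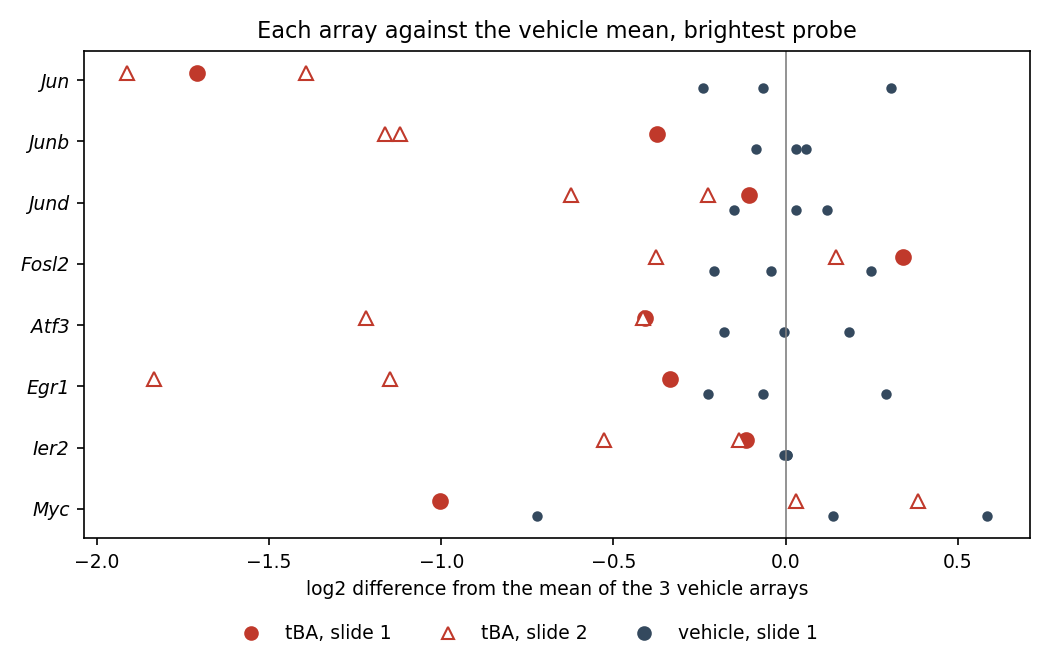
Each array's log2 difference from the mean of the 3 vehicle arrays at the brightest probe, with tBA arrays in the upper row of each gene (filled circle slide 1, open triangles slide 2) and vehicle arrays in the lower row. The 3 tBA arrays of Jun lie together between -1.91 and -1.39, whereas in Junb and Egr1 the tBA array of slide 1 lies closest to vehicle.

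Marker genes of other liver cell types were read beside these values. All 11 Kupffer cell and macrophage markers were measured, with summed signals of 203 to 210 times the 75th percentile in tBA livers and 187 to 246 times in vehicle livers. For T and NK cells 7 of 9 markers were measured, at 2.11 to 2.87 in tBA livers and 2.53 to 4.04 in vehicle livers, with Cd3e and Cd2 not well above background and a mean shift of -0.26 log2. For B cells 2 of 4 markers were measured, with a mean shift of -0.46 log2 and tBA replicate 2 lowest, at -1.47 relative to the vehicle mean. The mean shifts of the sinusoidal endothelial, stellate, bile duct and neutrophil lists were 0.14, -0.078, -0.066 and 0.29 log2, with 6 of 9, 8 of 8, 4 of 6 and 3 of 6 markers measured. The summed signal of the endothelial markers was 74.6 to 77.7 in tBA livers and 63.7 to 74.3 in vehicle livers, so these groups lay apart, while their mean deviations in log2 overlapped. In the other lists named here the summed signals of the groups overlapped. The part of these cell types in the differences above was not tested.

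Genes around AP-1 were read from 5 lists chosen with earlier results of these data known: bZIP partners, further immediate early genes, upstream kinases and promoter regulators, AP-1 target genes, and MYC partners and targets. In each list limma called 0 genes at an adjusted p of 0.05 over all genes, where 0.027% of all genes passed lower and 0.00901% higher. The smallest adjusted p in any of the lists was 0.167. The smallest p that an exact permutation of 3 against 3 arrays can give is 0.1.

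Of the further immediate early genes 43 of 48 were tested, 15 higher and 28 lower, with a median difference of -0.14. Groups lay apart with tBA lower in 10 of the 43 and higher in 3, that is 23.3% and 6.98%, beside 11.3% and 12.8% of all genes. In limma 10 of the 43 had an unadjusted p under 0.05, beside 15.1% of all genes. Ier3, an early response gene that affects cell survival, read 1.66, 1.09 and 1.89 in tBA livers and 3.12, 2.78 and 2.85 in vehicle livers, a difference of -1.37 (SE 0.22, limma adjusted p = 0.167). Its groups were far apart, and within slide 1 it was at -1.26. Csrnp1, a nuclear protein first described as induced by AXIN1, was at -0.81 (SE 0.17, limma adjusted p = 0.194). The kinase genes Sgk1, responsive to glucocorticoids and serum, and Plk2, of the polo family, were at -0.89 (SE 0.19) and -0.61 (SE 0.13), with limma adjusted p of 0.199 and 0.2. For all of these the tBA values lay below the vehicle values, and none passed.

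Of the bZIP partners of AP-1, which can dimerise with Jun or Fos proteins or compete for related sites, 26 of 28 were tested, 15 higher and 11 lower, with a median of 0.087. In limma 3 of the 26 had an unadjusted p under 0.05, beside 15.1% of all genes. Groups lay apart with tBA lower in 2 of the 26 (7.69%) and higher in 1 (3.85%), beside 11.3% and 12.8% of all genes. The hepatocyte factor Cebpa was at -0.57 (SE 0.14, limma adjusted p = 0.221). The leukocyte AP-1 members Batf and Batf3 were at -0.47 and -0.47 (SE 0.16 and 0.18), and Bach1, a haem-sensing repressor, was at 0.60 (SE 0.25), with limma adjusted p of 0.291 to 0.336. None of these passed, and the groups of Batf3 and Bach1 overlapped. With normexp background correction Batf was at -0.067.

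At the mRNA level, the tested kinases and promoter regulators upstream of the immediate early genes stayed within a narrow band. No probe was matched to Mapk8, Map3k5, Braf, Rps6ka5, Mrtfa, Mrtfb or Fbxw7. Of 47 genes 39 were tested, 18 higher and 21 lower, with differences from -0.32 to 0.29 and a median of -0.029. In limma 2 of the 39 had an unadjusted p under 0.05, beside 15.1% of all genes. Groups lay apart with tBA lower in 5 of the 39 (12.8%) and higher in 4 (10.3%), near the 11.3% and 12.8% of all genes. The p38 kinase gene Mapk11 was at -0.32 (SE 0.12), the Ras activator Sos1 at 0.23 (SE 0.094) and the JNK kinase gene Map2k7 at 0.28 (SE 0.14). Their limma adjusted p ran from 0.316 to 0.387, and none passed.

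Of the AP-1 target genes 23 of 30 were tested, 6 higher and 17 lower, with a median of -0.14. In limma 5 of the 23 had an unadjusted p under 0.05, beside 15.1% of all genes. Groups lay apart with tBA lower in 5 of the 23 (21.7%) and higher in 0, beside 11.3% and 12.8% of all genes. The gelatinase gene Mmp2 was at -0.48 (SE 0.14), the cytokine gene Tgfb1 at -0.43 (SE 0.14), the haem oxygenase gene Hmox1 at -0.48 (SE 0.17) and the urokinase gene Plau at -0.37 (SE 0.15), with limma adjusted p of 0.257 to 0.321. None passed.

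MYC partners and targets, which include the ribosome assembly genes that MYC is known to drive, had 19 higher and 9 lower among 28 tested of 34, with a median of 0.070. In limma 5 of the 28 had an unadjusted p under 0.05, beside 15.1% of all genes. Groups lay apart with tBA higher in 7 of the 28 and lower in 1, that is 25% and 3.57%, beside 12.8% and 11.3% of all genes. The transferrin receptor gene Tfrc was at 0.59 (SE 0.13, limma adjusted p = 0.2), the nucleolar genes Npm1, Nop16 and Nolc1 at 0.37, 0.35 and 0.33 (SE 0.097, 0.096 and 0.10), with limma adjusted p of 0.221 to 0.274. None passed.

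**Figure D4:**
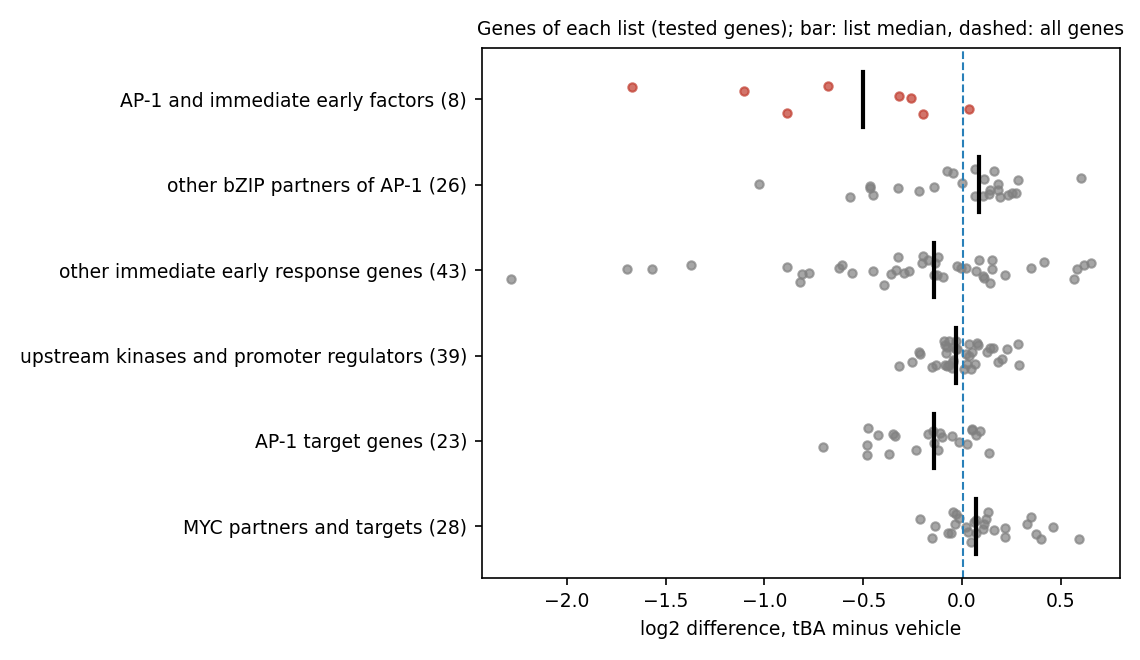
Log2 difference, tBA minus vehicle, of every tested gene in the AP-1 and immediate early factors (red) and 5 related lists (grey), with the number tested in brackets; the black bar is the list median and the dashed line the median of all genes, 0.0032. The medians are -0.50 for the immediate early factors, -0.14 for further immediate early genes and for AP-1 targets, and within 0.1 of 0 for the other lists.

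The genes whose level followed Jun most closely over the 6 arrays were Moap1 (Pearson r = 0.991), Glb1l2 (0.987), Prmt2 (0.985), Mvd (0.984) and Trim14 (0.984), each read from its brightest probe. In all 5 the tBA values lay below the vehicle values, by 0.14 to 0.70 between the nearest animals. That follows largely from how they were picked, since the groups of Jun itself lay apart. Of 11090 genes, 11.3% lay apart in that direction, so nothing is read from the 5. These r values are a description over 6 arrays that share the 2 groups and 2 slides. Jun itself had the wider difference: Mvd, of the mevalonate pathway, was at 0.512 times the vehicle level and Trim14 at 0.849 times.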

How the data were processed

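Per the file headers, the authors read spot intensity with version 10.7.1.1 of Agilent Feature Extraction (10.7 in the submitters' processing notes), whose processed signal is background-subtracted; the array annotation uses rn4. The deposited series table is a linear ratio: the processed signal over 1 divisor per array, 570.0 to 639.5, without centring; its column medians were 0.0982, 0.095 and 0.0952 for tBA replicates 1 to 3 and 0.1019, 0.102 and 0.0994 for vehicle replicates 1 to 3, and a higher value means more signal.

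Spots marked as outliers, 3 to 16 per array, were set to missing, none of them in the immediate early genes, and control spots were dropped. Probes were named through accessions in the RefSeq genes of GRCr8 (27460 of 61657 probes). The log2 processed signal minus the array's 75th percentile was fitted, tBA minus vehicle, with limma 3.58.1 (lmFit, eBayes; R 4.3.3) over 37647 probes; 43 passed an adjusted p of 0.05 (0.114%). Benjamini-Hochberg adjustment over 11094 genes, each at its brightest tested probe, gave 4 calls. Per list, the 4 genes with the smallest unadjusted p are named, except 1 that is not reported here. The 10 genes and all lists were chosen with earlier results of these data known. The number of arrays limits precision. The fit was tested on simulated data. The simulated noise held no slide effect, and most of the known differences added to it were not called. Figures used Python 3.11.15 and matplotlib 3.10.9.

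Alternatives were normexp background correction (on the median signal, since the mean signal was not used here), other scalings, the authors' table, other filters, a common floor, an intensity trend, slide 1 alone, blocks for slide (fixed or random) or replicate, the mean of all probes, and leaving out each array.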

Additional observations from a re-analysis of the deposited data

How the results depend on the processing

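Over 20 alternatives limma called 0 of the immediate early factors and 0 genes of the 5 lists, and the 20 genes picked from the lists by smallest p kept their direction in all 400 refits, with adjusted p from 0.0849 upward. Their sizes moved more: normexp background correction gave -0.067 for Batf, -0.26 for Batf3, -0.11 for Mapk11, 0.14 for Map2k7, -0.21 for Tgfb1 and -0.23 for Plau, and slide 1 alone, like slide as a fixed block, gave -0.28 for Batf3, -0.53 for Csrnp1, -0.091 for Mapk11, 0.17 for Map2k7, -0.21 for Mmp2 and -0.25 for Tgfb1. Leaving out 1 array gave -0.31 for Batf (tBA replicate 2), 0.14 for Map2k7 (tBA replicate 3), -0.24 for Plau (vehicle replicate 2) and 0.40 for Bach1 (vehicle replicate 3). Jun ranged from -1.81 (without tBA replicate 2) to -1.52 (without vehicle replicate 1). Junb, Jund, Egr1, Atf3 and Ier2 stayed below 0 in each alternative. Their smallest differences, with slide as a fixed block, were -0.37, -0.11, -0.34, -0.41 and -0.11. The other filters, the common floor, the intensity trend and the replicate block left the differences of the immediate early factors and the 20 picked genes unchanged. Signs kept under those settings, in every count of this paragraph, therefore say nothing about stability. The same holds for the mean of all probes in genes with 1 tested probe. The authors' table, the same signal over 1 divisor per array, and slide as a random block barely moved the differences. Jun was at -1.672 in both, so signs kept there say little. All of these genes had also been chosen with this contrast known. Fosl2 kept its sign in 16 and Myc in 18 of 20, from -0.12 to 0.34 and from -1.005 to 0.21; Myc was at 0.21 without tBA replicate 1 and 0.096 without vehicle replicate 1. With normexp background correction Egr1 was at -0.83.

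Counts over all probes and genes were less stable. Against 43 probes called, 18 passed with no filter, 0 with the filter to all 6 arrays, 65 with the common floor, 68 with the intensity trend, 20 with slide as a fixed block, 0 within slide 1 and 6 with the replicate block. Against 4 genes called, 0 passed with no filter, 2 with the filter to all 6 arrays, 1 with slide as a fixed block, 0 within slide 1 and 0 with the replicate block. Leaving out 1 array gave 6 to 45 probes and 0 to 4 genes (4 when tBA replicate 1 was dropped, 1 when vehicle replicate 3 was, otherwise 0); of the tBA arrays, dropping replicate 2 left 6 probes and replicate 3 left 14, and of the vehicle arrays, dropping replicate 1 left 22 and replicate 3 left 25. The causes were not tested. Deviations of same-numbered animals from their group means had r = -0.056, -0.064 and 0.014 over probes. Animals with unlike numbers gave r from -0.058 to 0.11. Slide differed among the tBA animals but not among the vehicle animals, so these r values cannot decide whether the numbers pair animals.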

Other observations

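Outside the rule for named genes, 8 further immediate early genes were picked with their values in view. Dusp1, a MAP kinase phosphatase that is itself an immediate early gene, read -0.93, -0.71 and -1.15 in tBA livers and 1.51, 0.60 and -0.19 in vehicle livers, a difference of -1.57 (SE 0.41, limma adjusted p = 0.225). Its vehicle animals were more spread than its tBA animals. Nr4a1, an orphan nuclear receptor, was within an SD of 0.030 in tBA livers and 0.32 in vehicle livers, at a difference of -0.62 (SE 0.17, limma adjusted p = 0.229). Gadd45g, a growth arrest gene, read 1.68, 1.72 and 4.15 in tBA livers and 5.37, 4.20 and 4.83 in vehicle livers. Its difference of -2.28 (SE 0.71, limma adjusted p = 0.268) was the lowest of the 43 tested further immediate early genes, and tBA replicate 3 lay close to the vehicle animals, unlike in Egr1 and Atf3.

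In 3 of the further immediate early genes the groups lay apart with tBA higher. Btg1, an antiproliferative gene, read 6.78, 6.48 and 6.29 in tBA livers and 6.00, 5.98 and 5.71 in vehicle livers, a difference of 0.62 (SE 0.16, limma adjusted p = 0.221). Gadd45b, a stress response gene, read 0.50, 1.79 and 0.56 in tBA livers and 0.27, 0.31 and 0.32 in vehicle livers, a difference of 0.65 (SE 0.35, limma adjusted p = 0.409) that was largest in tBA replicate 2. Pim1, a serine/threonine kinase gene, was at 0.41 (SE 0.19, limma adjusted p = 0.353).

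Zfp36, an mRNA decay factor of the same response, was at -0.0048 and Btg2, an antiproliferative gene, at 0.11, and the groups of both overlapped.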
